A study of Homo sapiens with 2 samples.

Results

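Clusters of Flag-RBM47 tags that lay within 10 kb downstream of a gene and had no other location label were examined. These were the clusters whose location label was exactly downstream_10k, and they numbered 14654 of the 233546 clusters in the deposited table, or 6.27% (Wilson 95% interval 6.18 to 6.37, counting error only). None of them carried a gene name, so each was related to the nearest cluster on the same strand that did. The data came from HITS-CLIP, the sequencing of RNA crosslinked to and pulled down with a protein, in MDA231-BrM2a. This non-clonal line was derived from MDA-MB-231 breast cancer cells and is brain metastatic. It carried a doxycycline-inducible, Flag-tagged wild-type RBM47, induced over 3 days at a doxycycline concentration of 1 ng/ml until the cells were crosslinked with ultraviolet light. There was 1 group with 2 replicates, nothing in the labels stated that these were separate cultures, and no control library was analysed here. Bound RNA therefore cannot be told apart from pull-down background, and the RNA is that contacted by an introduced and not an endogenous protein.

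RBM47 is an RNA-binding protein with RNA recognition motifs. A messenger RNA ends where the transcript is cleaved and polyadenylated, and many genes have several such sites, so that the same gene can give 3'UTRs of different length. RNA polymerase also continues past the cleavage site before it terminates. A fragment that maps beyond the annotated end of a gene can thus come from a longer 3'UTR, from RNA past the cleavage site, or from a separate transcript, and counts of tags do not separate these. The labels rest on the gene ends in the annotation the authors used, and these ends were not compared with a later one.

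A tag is a unique read, and the authors listed only clusters with at least 1 tag in each replicate and 5 in total. The table held 999047 tags in replicate 1 and 3489697 in replicate 2, and counting error per cluster is therefore larger in replicate 1. Downstream clusters held 54680 of these tags in replicate 1 and 187912 in replicate 2. That was 5.47% of the tags of replicate 1 and 5.38% of those of replicate 2, or 5.43% ± 0.0625 (SD, n = 2). The median downstream cluster held 8 tags by the authors' total and was 83 nt long. Its median was 2 tags in replicate 1 and 7 in replicate 2. At least 100 tags were held by 198 downstream clusters, or 1.35%, and at least 1000 by 5. The 147 clusters that make up the top 1% held 20.2% of the downstream tags. Over all clusters of the table the median was also 8 tags, with a length of 82 nt. There 1.93% reached 100 tags and the top 1% held 28.9% of the tags.

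Downstream clusters were far more numerous than clusters labelled only as within the same distance upstream of genes, and held fewer tags each than 3'UTR clusters. The label upstream_10k alone was given to 1669 clusters, so the downstream clusters were 8.78 times as many (95% interval 8.35 to 9.24). A further 2247 clusters carried both labels, more than the upstream class itself, and were counted on neither side. The ratio thus holds for the single labels only and would be lower with these clusters on both sides. In tags the downstream class exceeded the upstream class 10.89-fold in replicate 1 and 10.89-fold in replicate 2. Both libraries gave nearly the same ratio, with an SD of 0.00617 (n = 2). Mean log2 tags per cluster by the authors' total were lower in downstream than in 3'UTR clusters, with a difference of -0.70. In single libraries, with 1 added to each count, the difference was -0.49 in replicate 1 and -0.68 in replicate 2. That is -0.58 ± 0.14 (SD, n = 2). The added count weighs more in the shallower replicate 1, so this SD is not a spread between libraries of equal depth. At least 100 tags were reached by 1.35% of downstream clusters and by 6.38% of 3'UTR clusters. Among clusters of at least 30 tags the difference in mean log2 tags from 3'UTR clusters was smaller, at -0.35.

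Compared with upstream clusters, downstream clusters had mean log2 tags that were 0.11 higher, and 0.10 ± 0.02 (SD, n = 2) higher in single libraries. Against deep intergenic clusters, which lie farther from genes, the difference was 0.15, with 0.08 in replicate 1 and 0.16 in replicate 2. It turned to -0.03 among clusters of at least 30 tags, so no direction can be given for the deeper clusters. These are differences between class means set against the spread of the libraries, into which their unequal depth also enters. Clusters of 1 transcript are not independent and no test was run over them.

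**Figure D1:**
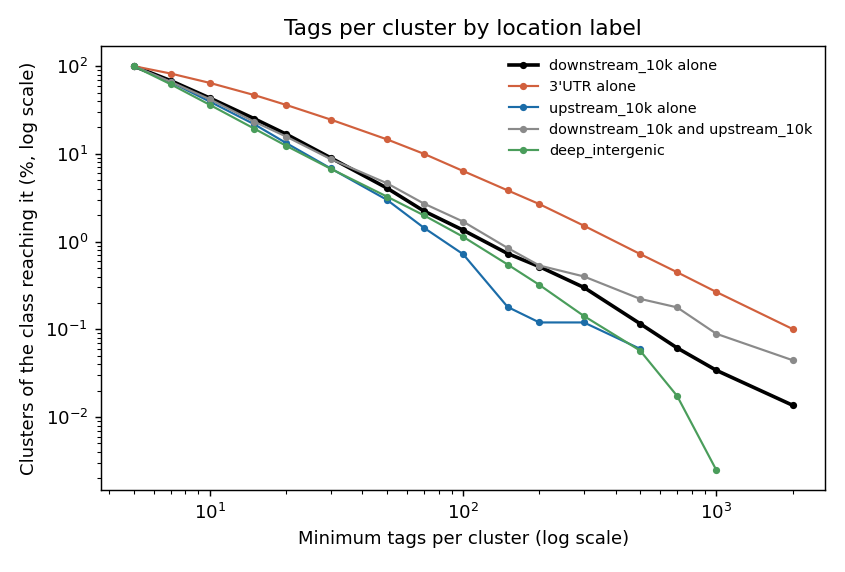
Share of the clusters of each location label (y axis, percent, log scale) that reach a given number of tags by the authors' total (x axis, log scale). The downstream curve runs below that of 3'UTR clusters throughout, with 1.35% against 6.38% of clusters at 100 tags.

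The nearest cluster of a named gene lay on the 5' side, that is before the downstream cluster along its strand, in 14250 of the 14654 cases. It lay within 10 kb on that side in 13314, or 90.9% (Wilson 95% interval 90.4 to 91.3), and within 10 kb on the 3' side in 0. The label itself implies the 0. Because it marks a gene end on the 5' side, the 90.9% also follows from it in large part. In the upstream class the 5' side within 10 kb accounted for 3 of the 1643 clusters with a named cluster on their chromosome and strand, and the 3' side for 863, so the labels take the strand into account. The 13314 clusters are called linked to that gene from here on. They held 93.7% ± 0.379 (SD, n = 2) of the downstream tags. Over all downstream clusters the median distance to the nearest named cluster was 3402 nt, with quartiles of 1345 and 6804 nt. In 49 cases it was at most 2 nt, so that the downstream and the named cluster abutted.

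The last annotated cluster before a linked downstream cluster was mostly a 3'UTR cluster. A label that included 3'UTR was found for 12208 of the 13314 nearest clusters, or 91.7%, whereas such labels made up 27.4% of all clusters of named genes. Since 3'UTRs lie at gene ends, this follows in large part from position. The nearest cluster lay in an intron alone in 373 cases and in an unclassified exon in 485. The latter label was not confined to noncoding genes, since it also preceded downstream clusters of the protein-coding gene CCNH. The median distance was 2831 nt where the nearest label included 3'UTR and 5272 nt where it was intron alone.

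Linked clusters thinned out with distance from the gene's last cluster, and so did their tags. The first 1000 nt held 2812 linked clusters, the second 2226 and the last of the 10 kb 638. By tags, the first 1000 nt held 29.8% of the linked tags in replicate 1 and 31.1% in replicate 2. The range from 5000 to 10000 nt held 23.4% in replicate 1 and 22.3% in replicate 2. Because the distance was measured from a cluster and the label from an annotated end, clusters at the far edge are missed in part, and the decline in number cannot be read apart from this. The size of single clusters changed less, with a median of 10 tags in the first 1000 nt and 8 beyond 5000 nt. Large clusters were more frequent near the gene, since at least 100 tags were reached by 2.95% in the first 1000 nt and by 0.426% beyond 5000 nt. Across the 13314 clusters Spearman's rho of distance and tags was -0.0988, a weak relation between clusters that share libraries and transcripts.

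**Figure D2:**
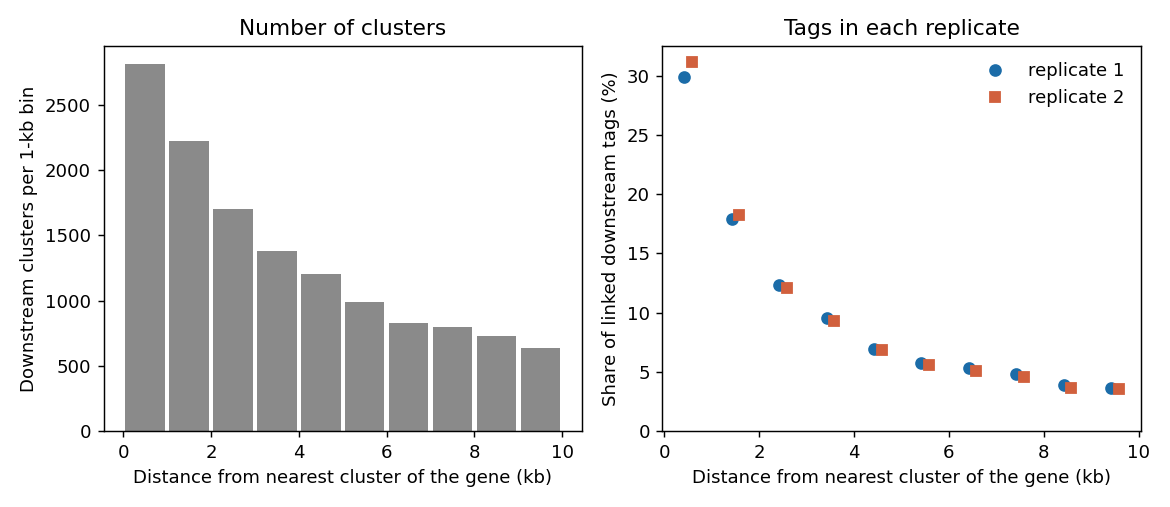
Linked downstream clusters in bins of 1 kb by distance from the nearest cluster of the gene (x axis, kb): their number (left, bars) and the share of linked tags in each replicate (right, percent, points). Both fall from the first bin, with 2812 clusters and 30.5% of the tags, to the last, with 638 clusters, and the replicates overlie each other.

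The downstream cluster with the most tags followed COL8A1, which encodes a chain of type VIII collagen. Positions here are those of the deposited table. The build is hg18 by the submitters' processing notes, and it is not known whether they count from 0 or 1. This cluster lay at chr3:100999075-101000766 on the plus strand, 232 nt past a COL8A1 3'UTR cluster of 5651 tags. It held 1221 tags in replicate 1 and 4753 in replicate 2, with 5974 by the authors' total. It was thus larger than the annotated 3'UTR cluster before it.

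UGCG encodes the enzyme that makes glucosylceramide, the first step to most glycosphingolipids, and was followed by 3 of the 20 largest downstream clusters. The largest lay at chr9:113736469-113737144 on the plus strand and held 436 tags in replicate 1 and 1653 in replicate 2. The UGCG cluster before it, labelled as coding sequence and 3'UTR, held 408 tags in total. The second lay at chr9:113735701-113736228 and held 223 and 846 tags in the 2 replicates. The third, at chr9:113735386-113735695, held 157 and 692.

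DKK1, a secreted inhibitor of Wnt signalling, was followed by the third largest downstream cluster. It lay at chr10:53748753-53749615 on the plus strand, 502 nt past the annotated DKK1 cluster, and held 307 tags in replicate 1 and 1054 in replicate 2. A neighbouring cluster at chr10:53748459-53748754 held 142 and 485. Both were small beside the 19199 tags of the annotated DKK1 cluster. Another 3 of the 20 clusters followed EGFR, a receptor tyrosine kinase for epidermal growth factor. The largest, at chr7:55244461-55245669 on the plus strand, held 171 tags in replicate 1 and 722 in replicate 2, and lay 1799 nt past an EGFR 3'UTR cluster of 1455 tags.

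The remaining clusters of the first 20 had totals from 442 to 1063 tags. OGFRL1 was followed by 3 of them, and the largest held 143 tags in replicate 1 and 646 in replicate 2. The cell-surface sheddase genes ADAM10 and ADAM17 had 1 cluster each. The ADAM10 cluster began 4 nt past the annotated cluster and held 225 and 838 tags, and the ADAM17 cluster held 95 and 379. Single clusters also followed MAN2A1, a Golgi mannosidase of N-glycan processing, with 676 tags, ERO1L (current symbol ERO1A), an oxidase for disulphide bonds, with 629, STT3B, a catalytic subunit of oligosaccharyltransferase, with 625, and SSR3, a subunit of the translocon-associated protein complex, with 442. PLAC8 was followed by a cluster of 671 tags. Among these 20 only the cluster nearest to the noncoding RNA LINC00472, with 463 tags, was not linked, at 14704 nt. The 20 clusters had 13 nearest genes between them, LINC00472 included. In the 20, the replicate 1 share of the tags ran from 16.2% to 24.6%, and it was 22.3% over the whole table. The 21st cluster held 434 tags.

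Summed by gene, linked clusters followed 1451 of the 7698 named genes with a cluster, or 18.8%. Of the linked genes, 1446 matched RefSeq by gene ID, with 1382 protein-coding genes and 46 long noncoding RNA genes. A linked gene had a median of 4 downstream clusters and 33 downstream tags. The 12 genes with the most downstream tags held 16.3% of all linked tags, and they are given here in tags per 1000 tags of a replicate. COL8A1 reached 1.32 ± 0.101 (SD, n = 2), UGCG 1.03 ± 0.0835, OGFRL1 0.983 ± 0.0625, DKK1 0.736 ± 0.0302 and EGFR 0.622 ± 0.0739. The other 7 genes lay close together, from PLAC8 with 0.548 ± 0.0509 to PAWR with 0.435 ± 0.0126, and neighbours in this order were often within the spread of the libraries. PLAC8 and SSR3, for example, changed places between the replicates. These are sums over clusters and not levels per length of RNA.

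**Figure D3:**
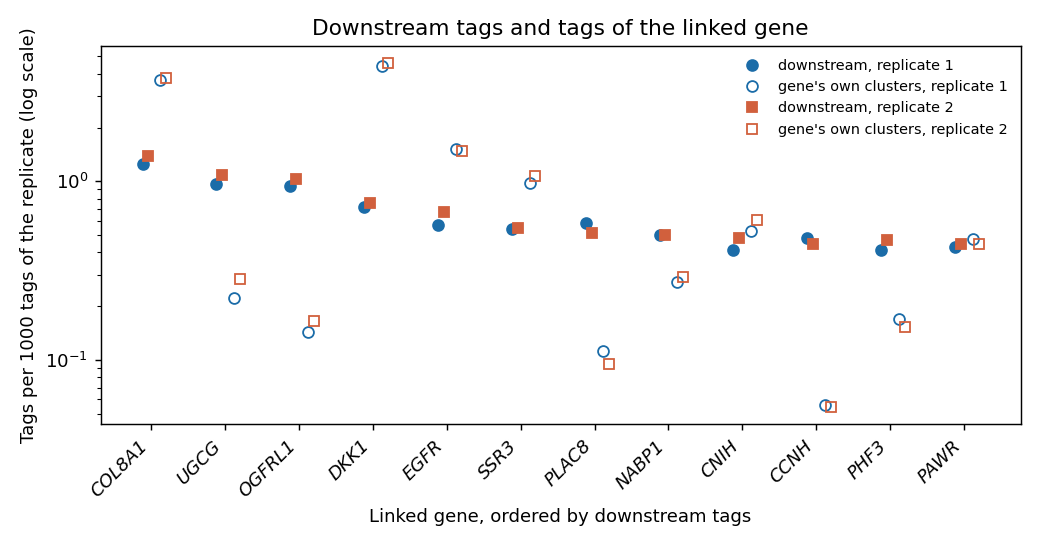
Tags per 1000 tags of the replicate (y axis, log scale) in the linked downstream clusters (filled) and in the gene's own clusters (open) of the 12 genes with the most downstream tags. Downstream tags exceed the gene's own in UGCG, OGFRL1, PLAC8, NABP1, CCNH and PHF3 in both replicates, and are lower in COL8A1, DKK1, EGFR, SSR3 and CNIH.

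In several of these genes the downstream clusters held more tags than all annotated clusters of the gene together. UGCG had 967 downstream tags in replicate 1 and 3790 in replicate 2, against 222 and 985 of its own, a ratio of 4.10 ± 0.359 (SD, n = 2). OGFRL1 had 938 and 3585 downstream tags against 143 and 574, a ratio of 6.40 ± 0.222. CCNH, which encodes cyclin H of the CDK-activating kinase, had 483 and 1561 against 56 and 190, a ratio of 8.42 ± 0.289. No CCNH 3'UTR cluster was listed, and the CCNH cluster before its largest downstream cluster lay in an unclassified exon and held 16 tags. For PLAC8 the ratio was 5.30 ± 0.133, for PHF3, a PHD finger protein that binds RNA polymerase II, 2.76 ± 0.457, and for NABP1, a single-stranded DNA-binding protein, 1.78 ± 0.0781. In each of these 6 genes the ratio was above 1 in both replicates.

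COL8A1, DKK1, EGFR, SSR3 and CNIH (current symbol CNIH1, a cargo receptor of the early secretory pathway) had fewer downstream tags than tags of their own. DKK1 had 714 and 2643 downstream tags against 4390 and 16009, a ratio of 0.164 ± 0.00173 (SD, n = 2). COL8A1 had 1247 and 4852 against 3677 and 13205, a ratio of 0.353 ± 0.0200. EGFR had 569 and 2352 against 1512 and 5161, a ratio of 0.416 ± 0.0561. In PAWR, which encodes the pro-apoptotic protein Par-4, the ratio was 0.893 in replicate 1 and 0.996 in replicate 2.

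Per length the picture differed by gene. In COL8A1 the 2 downstream clusters covered 1.87 kb with 665 tags per kb in replicate 1 and 2589 in replicate 2, and the annotated 3'UTR clusters held 574 and 2348 per kb. Downstream density over 3'UTR density was 1.13 ± 0.0400 (SD, n = 2) in COL8A1, 1.25 ± 0.0262 in OGFRL1, 1.97 ± 0.462 in UGCG and 1.87 ± 0.152 in PLAC8. It was 0.0899 ± 0.00146 in DKK1, 0.185 ± 0.00957 in SSR3, 0.385 ± 2.83e-04 in CNIH and 0.751 ± 0.0371 in EGFR. In NABP1 and PHF3, which had more downstream than own tags, it was 0.927 ± 0.0927 and 0.856 ± 0.0701, and in PAWR 0.575 ± 0.0260. The downstream part of DKK1 thus held tags at a far lower density than its annotated 3' end, whereas that of COL8A1 was not.

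The 12 genes also differed in shape. In UGCG, COL8A1 and CNIH the clusters were few, deep and close together. The 6 UGCG clusters each held at least 100 tags and filled 2191 nt of a span of 2216 nt. The 9 CNIH clusters covered 2966 of 3003 nt. The 12 EGFR clusters covered 4175 of 4249 nt and ended there. In these 4 genes at most 1 deep intergenic cluster followed on the same strand up to 20 kb past the gene's last cluster. The next cluster of any named gene on that strand lay 220 kb or more away for UGCG, CNIH and EGFR, and 23.0 kb away for COL8A1.

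In CCNH, PHF3, PAWR, SSR3 and NABP1 the clusters were many, small and spread over the 10 kb. PHF3 had 64 clusters with a median of 23.5 tags over 10063 nt, the highest number of any linked gene, and its largest held 5.89% of the downstream tags. CCNH had 54 clusters over 9923 nt. Clusters continued past the limit of the label in several of them. Up to 20 kb past the gene's last cluster, CCNH was followed by 51 deep intergenic clusters with 474 tags in replicate 1 and 1685 in replicate 2, NABP1 by 45 with 325 and 1088, SSR3 by 26 with 240 and 878, and PHF3 by 43 with 213 and 865. For CCNH these tags were about as many as the downstream tags. OGFRL1 and DKK1 lay between the 2 shapes. OGFRL1 had 11 clusters of at least 100 tags, and DKK1 had 6, followed by shallow clusters out to 8364 nt. Over the same 20 kb DKK1 was followed by 28 deep intergenic clusters with 65 tags in replicate 1 and 173 in replicate 2, PAWR by 25 with 70 and 225, and OGFRL1 and PLAC8 by 3 each.

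**Figure D4:**
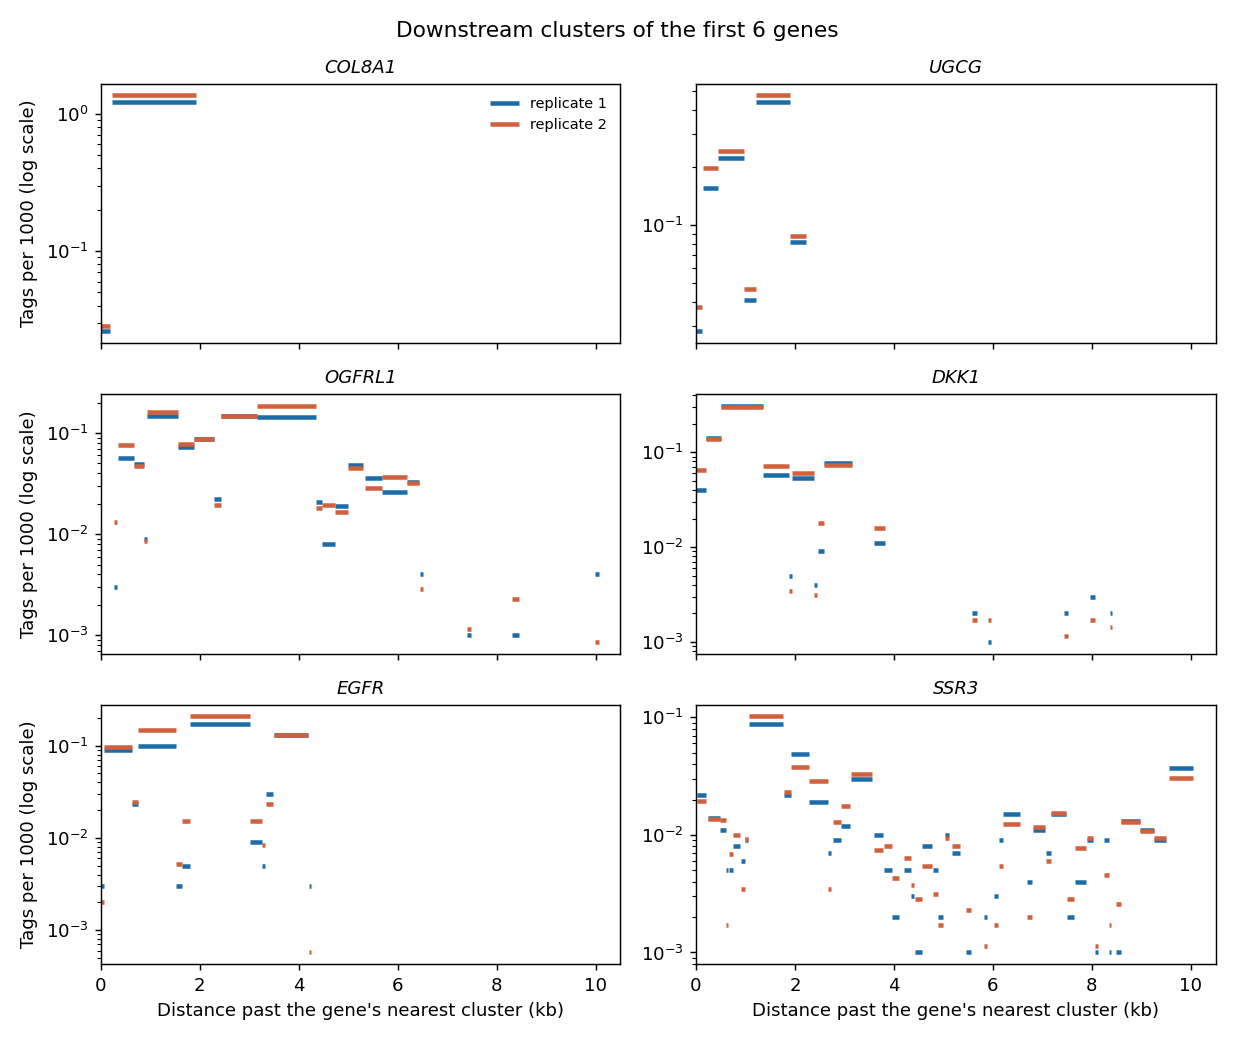
Linked downstream clusters of the 6 genes with the most downstream tags, by distance past the nearest cluster of the gene (x axis, kb) and tags per 1000 tags of the replicate (y axis, log scale, range set per gene); each bar spans 1 cluster. The UGCG clusters span 2216 nt and those of EGFR 4249 nt, whereas the 47 SSR3 clusters span 10028 nt, and both replicates show the same outline.

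Spans over 5 kb were the more frequent among genes with at least 100 downstream tags, a minimum that favours genes with many clusters. Over all linked genes the median was 4 clusters. Among the 441 genes with at least 100 downstream tags, which held 88.2% of the linked tags, the median span was 7.29 kb and the median number of clusters 19. A single cluster held 50% or more of the tags in 11 of them. A span over 5 kb was found in 297 and a span of 5 kb or less in 144. Consecutive downstream clusters of a gene were a median of 81 nt apart, and 40.8% of these spacings were under 50 nt. Of the deep intergenic clusters, 3747 of 40168 lay within 10 kb past a downstream cluster on the same strand, or 9.33% (Wilson 95% interval 9.05 to 9.62).

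Downstream tags were only loosely related to the tags of the gene they followed. Across the 1451 linked genes, which share the 2 libraries, Spearman's rho between downstream tags and tags of the gene's own clusters was 0.216, while rho between the replicates for downstream tags was 0.955. The median ratio of downstream to own tags was 0.195 in replicate 1 and 0.181 in replicate 2. In 270 genes, or 18.6%, the downstream tags exceeded the gene's own in both replicates. Besides the genes above, the highest ratios among such genes with at least 100 tags of their own were 9.65 ± 2.40 (SD, n = 2) in the zinc finger gene ZNF121, 6.13 ± 1.18 in MRPS30, a mitochondrial ribosomal protein, and 5.48 ± 0.797 in PPP4R2, a regulatory subunit of protein phosphatase 4. AGO3, an Argonaute protein of small RNA silencing, was among the first 10 with 4.70 ± 0.540. This ranking was set after the values were seen.

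**Figure D5:**
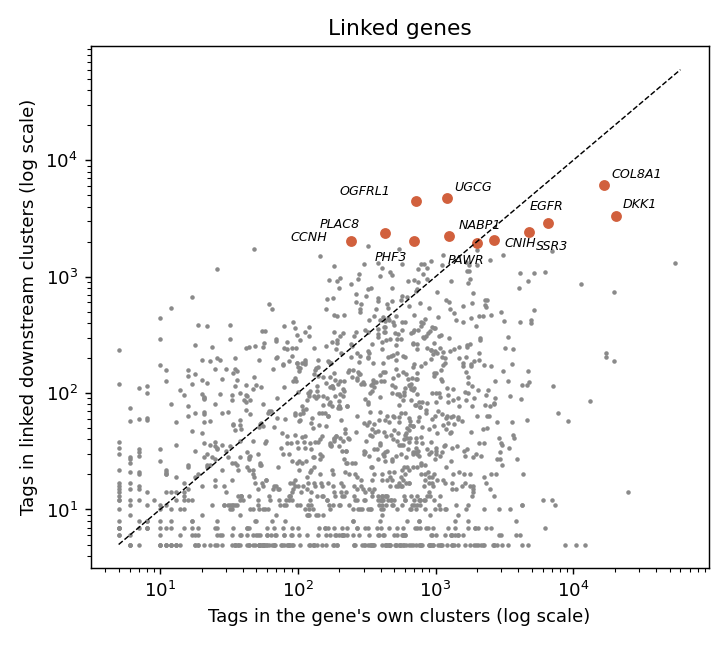
Tags by the authors' total in linked downstream clusters (y axis, log scale) against tags in the gene's own clusters (x axis, log scale) for the 1451 linked genes; the dashed line marks equal tags and the 12 genes with the most downstream tags are named. Points scatter widely, with a Spearman's rho of 0.216, and most do not lie above the line, since only 306 genes have more downstream than own tags.

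Genes with more 3'UTR tags were followed by downstream clusters more often, but the downstream tags did not rise in proportion. A linked cluster was found for 13.3% of the 2111 genes with 5 to 29 tags in 3'UTR clusters (Wilson 95% interval 11.9 to 14.8), and for 33.4% of the 440 genes with at least 1000 (29.2 to 37.9). The median linked gene had 20 downstream tags in the lowest of these classes and 44 in the highest. Downstream tags over 3'UTR tags fell from a median of 2 in replicate 1 and 1.67 in replicate 2 in the lowest class to 0.0280 and 0.0213 in the highest. The minimum of 5 tags per listed cluster sets a floor under this ratio in the lowest class. Since the classes were formed from the 3'UTR tags, the denominator of the ratio, a fall across them was largely built in.

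Of the genes named by the study, 5 of 14 had a linked cluster, with 18.8% of all named genes as background. This background is not matched for tags, since these genes had a median of 768 tags of their own, against 96 over all named genes. DKK1 led by tags, with 3343 by the authors' total in 15 clusters. MBNL1, a splicing regulator, had 26 clusters with 65 tags in replicate 1 and 241 in replicate 2, a ratio to its own tags of 0.0866 ± 0.00718 (SD, n = 2). IL8 (current symbol CXCL8), a neutrophil chemokine, had 6 clusters with 38 and 170 tags, a ratio of 0.0113 ± 0.00204, although its own clusters held 17183 tags. The nuclear noncoding RNAs NEAT1 and MALAT1 had none. Among cytokine mRNAs 2 of 11 with clusters were linked, IL8 and CXCL1, the latter with 4 and 15 tags. Among mRNAs of YAP target genes 2 of 9 were, AJUBA with 2 and 14 tags and CTGF, a matricellular protein, with 1 and 4. The annotated CTGF clusters held 10429 tags. Among matrix genes 2 of 9 were, COL8A1 and THBS1, the latter with 10 and 58 tags against 7743 of its own. Of the 6 replication-dependent histone genes with clusters, whose mRNAs normally end in a stem-loop and not a poly(A) tail, 2 were, and HIST1H2AC had 14 and 32 downstream tags. Genes with very many tags of their own could thus have nearly none downstream.

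Chromosome 19 held 2.92% of the downstream clusters and 1.11% of all clusters. Its linked clusters followed numbered zinc finger (ZNF) genes in 288 of 376 cases, with 50 of them at ZNF460 and 33 at ZNF699. The share of ZNF genes among all named clusters of this chromosome was not determined, so no enrichment can be read from this count. ZNF genes encode DNA-binding proteins, many of them in arrays on this chromosome. Over the genome 49 of 199 ZNF genes with clusters were linked, or 24.6%, with 18.8% over all named genes. ZNF460 had the most, with 355 tags in replicate 1 and 1391 in replicate 2 in 50 clusters, a ratio to its own tags of 3.12 ± 0.194 (SD, n = 2). The median ratio over the 49 genes was 0.635 in replicate 1 and 0.515 in replicate 2, higher than the medians over all linked genes. Linked ZNF genes had a median of 100 tags of their own, against 293 over all linked genes, and the part of this in the ratio was not tested.

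The 1340 downstream clusters that were not linked were shallower, with a median of 7 tags against 9 in linked clusters. In 936 of them the nearest named cluster was on the 5' side beyond 10 kb, and in 374 of these it was within 20 kb. In the other 404 it was on the 3' side, at 12288 nt or more. A named cluster on the opposite strand lay within 10 kb of 13.7% of unlinked and of 12.7% of linked clusters.

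The split of tags between the libraries was compared for each cluster. The exact binomial test of the replicate 1 share against 22.3%, with Benjamini-Hochberg adjustment over all clusters, called 0 of 14654 downstream clusters. It called 26 of all 233546, or 0.0111%. At an unadjusted p under 0.05 the exact test marked 434 downstream clusters or 2.96%, near the 3.04% of all clusters, and a beta-binomial test with adjustment also called 0. The lowest adjusted p was 0.0813, in a cluster that followed FTL, the ferritin light chain gene, with 15 tags in replicate 1 and 8 in replicate 2. Restricted to clusters of at least 10 tags, this was the 1 downstream cluster called, with an adjusted p of 0.0299 in the exact binomial test. Over all downstream clusters replicate 1 contributed 22.5% of the tags (Wilson 95% interval 22.4 to 22.7). Spearman's rho between replicates was 0.460 across all downstream clusters and 0.682 across those of at least 30 tags, where 3'UTR clusters gave 0.829. Most downstream clusters held too few replicate 1 tags for single clusters to be compared closely.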

How the data were processed

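The deposited table gives, per the file headers, whole-number counts of tags per cluster in replicate 1, in replicate 2 and in total. Per the labels and methods, the authors poly(A)-tailed the bound fragments, reverse transcribed them with primers whose degenerate stretch told unique cDNA from amplification copies, mapped the Illumina reads, kept unique reads as tags and analysed these on Galaxy, where clusters seen in both replicates were called. The submitters' processing notes name Novoalign and hg18. A genome of that build was not used here, so no sequence is shown. How reads from repeats were treated is not given in the sources used here, and this could change counts. The table is a filtered list, so its sums are not library depths. In 14.5% of downstream clusters, and in 13.2% of all clusters, the replicate counts summed to more than the authors' total.

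Distances were measured edge to edge on the same chromosome and strand to clusters with a gene symbol, with overlap as 0 and ties given to the 5' side. A cluster was linked to a gene within 10 kb on the 5' side. Values per replicate are given as mean ± SD over 2 libraries, class means of log2 counts used a pseudocount of 1 for single replicates, and shares have Wilson 95% intervals, which cover counting error only and treat clusters as independent. The split between libraries was tested with a two-sided exact binomial test, Benjamini-Hochberg adjustment over all clusters and a threshold of 0.05. It compares libraries, not conditions. Named are the 20 downstream clusters with the most tags, the 12 genes with the most linked tags, and up to 3 linked members of each of 6 gene lists. The clusters, gene lists and the ZNF group were chosen with earlier results of these data known. Current symbols and gene classes came from RefSeq on GRCh38.p14 by gene ID. Python 3.11.15, pandas 2.3.3 and scipy 1.17.1 were used, and the test and the search for neighbours were tested on simulated data and on a brute-force search. Alternatives were tag minimums, merging, other labels, midpoints, 3'UTR neighbours and single replicates.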

Additional observations from a re-analysis of the deposited data

How the results depend on the processing

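Among 52 alternative settings, 37 shifted a value by more than its error, 14 did not and 1 turned its direction. The error was the replicate SD, a 95% interval for shares and medians over clusters, or a factor of 1.5 for counts. For the log2 differences the SD also reflects the unequal depth of the libraries. At 10 tags the downstream share of clusters was 6.67%, that of tags 5.22%, the log2 difference from 3'UTR -0.52 and from deep intergenic clusters 0.0704, the linked share 93.2%, the median distance 2955 nt, rho with the gene's own tags 0.188, the discordant clusters 1 and the ratio to upstream clusters 9.64. At 30 tags the shares were 5.97% and 4.42%, the log2 differences -0.35 and -0.0281, the latter reversed, the linked share 96.1%, the distance 2139 nt and the ratio 11.6. The cause was not tested. Counting every label with downstream_10k gave 7.29% of clusters and 6.35% of tags, merging gave 5.73% of clusters, and leaving out the largest cluster gave 5.26% of tags. Per nt the log2 differences were -0.48 from 3'UTR, 0.0674 from upstream and 0.0865 from deep intergenic clusters. With 3'UTR neighbours alone the linked share was 84.1% and the distance 3715 nt. Between midpoints it was 3533 nt. With the gene's 3'UTR clusters alone rho was 0.166.

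With each replicate left out, the share of clusters ranged from 6.49% to 6.57%, of tags from 5.38% to 5.47%, and the linked share from 91.9% to 94.2%. The shares of clusters and of linked clusters here took clusters with at least 5 tags in the single replicate. They are thus not at the same threshold as the main values of 6.27% and 90.9%, where 5 tags in total were enough. The log2 differences ranged from -0.68 to -0.49 from 3'UTR, from 0.0838 to 0.117 from upstream and from 0.0795 to 0.157 from deep intergenic clusters. The Spearman correlation of downstream with own tags ranged from 0.215 to 0.217, and the ratio to upstream in tags was 10.9 in either. The genes with more downstream than own tags ranged from 300 to 302 by a single replicate, and were 270 where both replicates were required. By the authors' total these genes were 306, and 258 among clusters of at least 10 tags. The ratio to upstream clusters and the count of these genes were examined under alternatives chosen after the data were seen. No paired analysis was possible because both libraries belong to 1 group. The depth of replicate 1, with a median of 2 tags per downstream cluster, limits single clusters.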
